A study of Homo sapiens with 12 samples.

Results

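POU2F1, POU2F2 and POU2AF1 make up the octamer system of B cells. They were taken by their symbols, 3 of the 57905 genes counted in the files, with no bound on their levels. The choice was made with earlier results of these data known. The cells were Nalm-6, an established human line from an acute lymphoblastic leukemia of B-cell precursors, and the assay was 3′ single-cell RNA-seq of 2 libraries, 1 per group. The comparison asked which transcripts differ when the blood transcription factor RUNX1 is induced. The first library is labelled empty vector and 72 h, its title names DMSO, and its labels give no doxycycline. The second is labelled induced RUNX1 expression and 72 h. For it, cells carrying the Tet-On regulator and a RUNX1 cDNA in the pLVX-Tight-Puro response vector were given 500 ng/ml doxycycline for 72 h. The study's own table of cell filters lists a DMSO library of Nalm-6 with a shorter treatment and the same number of cells after filtering as the control here, so the control may carry neither vector nor inducer. Vector, inducer, time and culture therefore cannot be told apart from RUNX1.

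Of 6073 control barcodes 5598 passed, and of 5491 barcodes of the RUNX1-labelled library 4800 passed, the filter on genes and mitochondrial UMIs (unique molecular identifiers, each a molecule counted once). They summed to 75754137 and 75350615 human UMIs, so 3 UMIs, the limit that a count of 0 allows, correspond to 0.0396 and 0.0398 CPM (a gene's UMIs divided by all UMIs of the same cells, times 1000000). With 1 library per group there is no replicate check and no test. Every interval is a 95% interval for counting error only. RUNX1 itself had 5282 UMIs in the control and 2288 in the RUNX1-labelled library, 69.7 and 30.4 CPM, a log2 ratio of -1.20 (-1.27 to -1.13), which goes against the label. The sources do not say whether the construct holds the 3′ end that the assay reads, so its RNA may be missing from the count. All ratios here are the RUNX1-labelled library over the control. Mitochondrial genes took 9.45% and 13.1% of the UMIs, and 12 barcodes occurred in both libraries, 10 of them among passing cells. Of the fixed B precursor markers, 11 of 12 reached a mean of 5 CPM. Of the T cell markers 1 of 7 did, with CD3D and CD3G at 0 UMIs in both libraries and the list summing to 7.63 and 9.58 CPM. Of the myeloid markers 0 of 7 did, with S100A8 and S100A9 at 0 UMIs and sums of 2.28 and 1.80 CPM.

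The octamer is an 8-base DNA element found in immunoglobulin promoters and enhancers and in promoters of histone H2B genes. POU2F1 (OCT1), made in nearly all cells, and POU2F2 (OCT2), made mainly in B cells and neurons, bind it through a bipartite POU domain. POU2AF1 (OBF1 or OCA-B) binds no octamer on its own but docks on the POU domain of either factor at the octamer and recruits transcriptional activators, and mice without it form no germinal centres.

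The promoters that bear on these genes were taken from RefSeq (GRCh38.p14, 250 bases before to 50 after each start site) and searched for the octamer, ATGCAAAT or its reverse complement ATTTGCAT, and for TGTGGT or ACCACA, core letters of RUNX binding sites. The 4 printed below show POU2F2, the member with the largest ratio, with the RUNX letters in capitals, and POU2F1 and 2 H2B genes with the octamer in capitals. They read 5′ to 3′ on the strand of the gene. The POU2F2 window is chr19:42132397-42132696 on the minus strand. The POU2F1 window is chr1:167328820-167329119 on the plus strand and belongs to an internal start site. The H2B stretches are chr6:27146881-27146920 for HIST1H2BK (H2BC12) and chr1:149886705-149886744 for HIST2H2BE (H2BC21), both on the minus strand.
POU2F2: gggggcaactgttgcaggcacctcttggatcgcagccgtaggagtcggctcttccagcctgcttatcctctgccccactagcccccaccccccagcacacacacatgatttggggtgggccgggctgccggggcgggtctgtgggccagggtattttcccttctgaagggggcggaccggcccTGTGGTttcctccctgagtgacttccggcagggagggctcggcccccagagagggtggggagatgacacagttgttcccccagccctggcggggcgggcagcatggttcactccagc
POU2F1: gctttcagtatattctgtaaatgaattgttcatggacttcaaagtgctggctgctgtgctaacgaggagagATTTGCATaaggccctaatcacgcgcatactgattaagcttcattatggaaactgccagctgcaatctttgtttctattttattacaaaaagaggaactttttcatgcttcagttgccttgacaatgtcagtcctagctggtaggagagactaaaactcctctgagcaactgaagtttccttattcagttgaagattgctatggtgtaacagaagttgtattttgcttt
HIST1H2BK: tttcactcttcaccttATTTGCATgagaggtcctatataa
HIST2H2BE: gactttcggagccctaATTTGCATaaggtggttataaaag

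The RUNX letters of POU2F2 begin at -67 relative to the start site, and 13.1% of all 35116 promoters in the table hold them on either strand. The octamer of POU2F1 begins at -179 of the internal start site. The octamer was in 1 of the 3 listed POU2F1 promoters, against 1.77% of all promoters. Of the 13 H2B genes with a listed promoter, 9 held the octamer. Among the 9 octamer target genes with a listed promoter, 0 held it in these 300 bases. A match is a description of letters, and its absence says nothing of the factor.

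POU2F2 transcript was 9.62-fold higher in the RUNX1-labelled library. The gene (ENSG00000028277; GRCh37 chromosome 19, 42590262 to 42700737, minus strand) had 834 UMIs in the control, or 11.0 CPM (10.3 to 11.8), and 7984 UMIs in the RUNX1-labelled library, or 106 CPM (104 to 108). Its log2 ratio was 3.27 (3.16 to 3.37), and 0.605% of the 9257 genes at a mean of 5 CPM or more had a higher one. Of the 3 octamer genes, 1 was at least 2-fold higher, beside 5.33% of all genes tested, and 1 at least 2-fold lower, beside 3.88%. The median log2 ratio of all these genes was -0.09. Among cells with under 10% mitochondrial UMIs (3651 and 599 cells) the log2 ratio was 3.68. The part of mitochondrial content in the result was not tested. The antisense genes inside POU2F2 also had more UMIs, with 2 and 75 for POU2F2-AS1 and 4 and 62 for POU2F2-AS2. Whether the counting used strand is not given in the sources used here, so their reads may not be fully separate from those of POU2F2.

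**Figure D1:**
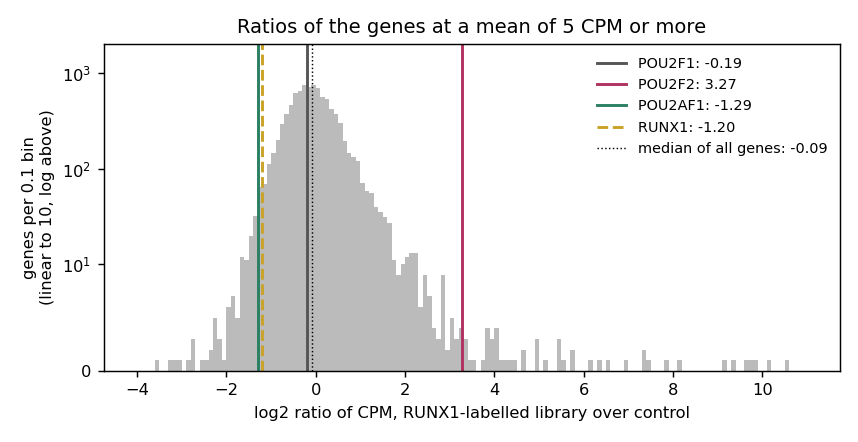
Histogram of log2 ratios of CPM (RUNX1-labelled library over control) for genes at a mean of 5 CPM or more, with the count of genes per bin on an axis that is linear to 10 and logarithmic above; 7 genes with 0 UMIs in 1 library are left out. POU2F2 lies in the upper tail at 3.27, POU2AF1 at -1.29 and RUNX1 at -1.20 lie in the lower tail, and POU2F1 at -0.19 lies near the median of -0.09.

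The higher POU2F2 level was present in every cell cycle phase. Phases were called from cells thinned to 8000 UMIs, and cells called G1 are termed non-cycling and those called S or G2/M cycling, names for the calls only, since G1 cells of a dividing line may still divide. Non-cycling cells numbered 297 in the control (5.73%) and 2240 in the RUNX1-labelled library (53.5%), and 98 and 172 of these lay within 0.05 of the limit between the classes. The median non-cycling cell held 21 and 13 UMIs of the phase genes in its 8000, against 84 and 67 in cycling cells, and these are the genes that made the calls. POU2F2 in the control was 16.5 CPM in G1, 11.3 CPM in S and 9.51 CPM in G2/M. In the RUNX1-labelled library it was 157 CPM in G1, 58.9 CPM in S and 67.3 CPM in G2/M. The lowest phase of the latter library was thus above the highest of the control.

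Between libraries the POU2F2 log2 ratio was 3.24 (2.86 to 3.66) in non-cycling cells, where 8.42% of genes were at least 2-fold higher. It was 2.57 (2.45 to 2.69) in cycling cells, where only 1.88% of genes were, and 0.176% of genes had a higher ratio. Within the RUNX1-labelled library, non-cycling cells held 2.50-fold more POU2F2 than cycling cells (log2 1.32, 1.25 to 1.39), beside 4.94% of genes at least 2-fold higher there. In the control the same ratio was 1.56-fold (log2 0.64, 0.22 to 1.04), beside 0.837% of genes at least 2-fold higher. The log2 ratios of the libraries differed by 0.68 (0.27 to 1.08). Because the RUNX1-labelled library held far more non-cycling cells, its level over all cells contains this difference as well.

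**Figure D2:**
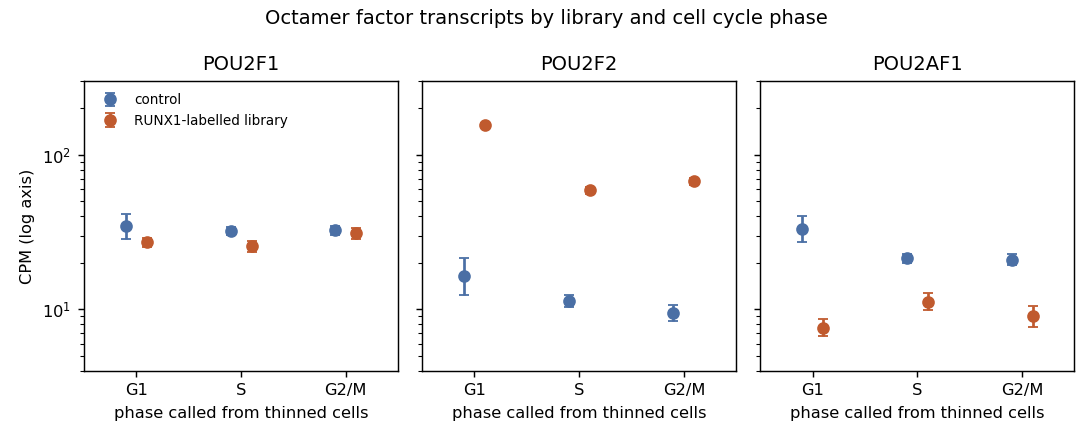
CPM on a log axis of each octamer factor by phase (G1, S, G2/M), with 1 point per library and phase and exact Poisson intervals as bars. For POU2F2 the points of the RUNX1-labelled library (58.9 to 157) sit above those of the control (9.51 to 16.5) in every phase, and for POU2AF1 they sit below.

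Ordering the cells by the larger of their S and G2/M scores gave a finer view. Each library was cut into 5 bins of equal cell number. In those of the RUNX1-labelled library, from the lowest to the highest score, POU2F2 was 174, 162, 112, 57.7 and 61.6 CPM. The intervals of the first 2 bins overlap (166 to 182 and 155 to 170), and those of the last 2 do as well. The control bins went from 14.6 CPM at the lowest score to 8.84 CPM at the highest. The score ranges differ between the libraries, since the lowest control bin reaches up to 0.213 and the middle bin of the RUNX1-labelled library ends at 0.114.

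The non-cycling cells of the RUNX1-labelled library were not uniform for POU2F2. Cells with a UMI of the chemokines CCL3 or CCL4 (1076 cells) held 199 CPM (192 to 207). Cells with the Fc receptor chain FCER1G and neither chemokine (484 cells) held 167 CPM (158 to 178). The remaining cells outside these sets and without C1orf141 or LINC00967 (621 cells) held 101 CPM (95.1 to 107), and the cells with C1orf141 or LINC00967 (252 cells, of which 139 are also in the chemokine set and 54 in the FCER1G set) held 94.6 CPM (84.3 to 106). The last 2 values do not differ beyond counting error, and the first 2 exceed both.

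Counted cell by cell, POU2F2 went from a transcript seen in few cells to one seen in many. At equal depth a POU2F2 UMI was found in 7.41% of control cells (6.71 to 8.15) and in 45.8% of those of the RUNX1-labelled library (44.3 to 47.3, both by Clopper-Pearson). At full depth 11.8% and 60.1% held one. There is no cell type in the files that should lack the gene, so the share that free RNA gives was not measured. Of the non-cycling cells of the RUNX1-labelled library, 19.5% held 3 or more POU2F2 UMIs, against 0.143% of cycling control cells and 0 of 297 non-cycling control cells, which allows up to 1.01% (3 counts of the total). Their counts varied more between cells than counting alone gives, with a variance of 2.06 times the mean and 42.8% of cells at 0 where a Poisson count of the same mean would give 26.8%. In the same cells POU2F1 had a variance of 1.09 times its mean.

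POU2AF1, the coactivator, went the other way. The gene (ENSG00000110777; GRCh37 chromosome 11, 111222980 to 111326355, minus strand) had 1643 UMIs in the control, or 21.7 CPM (20.7 to 22.8), and 670 UMIs in the RUNX1-labelled library, or 8.89 CPM (8.23 to 9.59). It was thus 2.44-fold lower (log2 ratio -1.29, -1.42 to -1.16), and 1.26% of genes had a lower ratio. In the control it was 33.1 CPM in G1, 21.4 CPM in S and 20.9 CPM in G2/M, and in the RUNX1-labelled library it was 7.62, 11.2 and 9.06 CPM. The control was higher in each phase, with no overlap of intervals.

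The gap in POU2AF1 was widest in non-cycling cells, at a log2 ratio of -2.12 (-2.45 to -1.77), where 5.68% of genes were at least 2-fold lower. In cycling cells it was -1.05 (-1.21 to -0.89), where 1.57% of genes were. Non-cycling control cells held 1.56-fold more POU2AF1 than cycling ones (log2 0.64, 0.34 to 0.92), while non-cycling cells of the RUNX1-labelled library held less than cycling ones (log2 -0.43, -0.67 to -0.20). The difference between these log2 ratios was -1.07 (-1.43 to -0.70), and with 1 library per group it was not tested beyond counting error. The non-cycling control value rests on 108 UMIs in 297 cells, 98 of them near the limit between the classes. In the 5 bins of the control by rising score POU2AF1 was 25.1, 20.3, 19.7, 21.1 and 23.0 CPM, so it was not a steady fall, and the intervals of the lowest and the highest bin overlapped (22.4 to 28.0 and 20.7 to 25.4). In the bins of the RUNX1-labelled library it was 7.16, 8.34, 8.97, 9.16 and 10.8 CPM.

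Among the sets of non-cycling cells, POU2AF1 was 5.40 CPM in cells with CCL3 or CCL4, 6.93 CPM in FCER1G cells, 5.20 CPM in cells with C1orf141 or LINC00967 and 11.1 CPM (9.13 to 13.3) in the remaining cells. The order was the reverse of that of POU2F2 for the chemokine and the remaining cells. At equal depth 15.6% of control cells (14.6 to 16.6) and 6.06% of those of the RUNX1-labelled library (5.36 to 6.83) held a POU2AF1 UMI, and without thinning 23.9% and 11.8% did. Within each state and library, the POU2AF1 intervals for cells with and without a POU2F2 UMI overlapped. In the RUNX1-labelled library, 5.07% of non-cycling cells with POU2F2 (3.93 to 6.42) and 5.53% of those without it (4.17 to 7.17) held a POU2AF1 UMI.

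POU2F1 differed least of the 3. The gene (ENSG00000143190; GRCh37 chromosome 1, 167190113 to 167396582, plus strand) had 2462 UMIs in the control, or 32.5 CPM (31.2 to 33.8), and 2148 UMIs in the RUNX1-labelled library, or 28.5 CPM (27.3 to 29.7). The log2 ratio of -0.19 (-0.27 to -0.11) stood near the median of all genes, with 42.3% of genes below it, and its sign depended on the scaling and the cells. Against totals without mitochondrial and ribosomal protein genes it was 0.02, and among cells with under 10% mitochondrial UMIs it was 0.16. In the control POU2F1 was 34.6, 32.2 and 32.5 CPM in G1, S and G2/M, and in the RUNX1-labelled library it was 27.2, 25.6 and 31.1 CPM. In G2/M the libraries did not differ beyond counting error (log2 -0.06, -0.22 to 0.09). The sets of non-cycling cells ranged from 25.8 to 33.4 CPM, with overlapping intervals. In cycling control cells, a POU2F1 UMI was in 16.1% of cells with POU2F2 (12.4 to 20.4) and 22.6% of those without it (21.4 to 23.8). In non-cycling control cells and in both states of the RUNX1-labelled library these intervals overlapped. The end of POU2F1 overlaps CD247, a T cell receptor chain on the opposite strand, which had 205 and 53 UMIs.

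The makeup of the octamer transcripts differed between the libraries. The assay tags each captured molecule near its 3′ end, so UMIs of different genes are not scaled by length, although capture may differ between genes. POU2F2 gave 25.3% of the POU2F1 and POU2F2 UMIs in the control (23.8 to 26.8) and 78.8% in the RUNX1-labelled library (78.0 to 79.6). In non-cycling cells the shares were 32.3% and 85.2%, in cycling cells 24.7% and 69.1%. For each POU2F1 or POU2F2 UMI there were 0.498 POU2AF1 UMIs in the control and 0.0661 in the RUNX1-labelled library. In the cells with CCL3 or CCL4 this value was lowest, at 0.0240, and POU2F2 gave 88.5% of the octamer factor UMIs there.

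In the RUNX1-labelled library POU2F2 was found more often in cells with SPIB, an ETS factor of B cells listed as an octamer target. This pair was chosen after its values were seen. In non-cycling cells of the RUNX1-labelled library, thinned to equal depth, 79.3% of cells with a POU2F2 UMI (77.0 to 81.5) held a SPIB UMI, against 52.3% of cells without one (49.1 to 55.5). In cycling cells the shares were 54.2% (50.2 to 58.1) and 29.2% (26.7 to 31.7). In the control SPIB was rare, in 0 of 36 non-cycling cells with POU2F2 and 3 of 261 without it, and the intervals of the cycling cells overlapped (3.45%, 1.79 to 5.95, and 1.78%, 1.42 to 2.21). The order was not particular to SPIB. In the RUNX1-labelled library CD79A, a B precursor marker, was in 89.5% and 83.5% of non-cycling cells with and without POU2F2. In cycling cells it was in 61.6% and 46.6%, and in cycling control cells in 61.5% and 54.2%, with no overlap of intervals in these 3 groups. DNTT, the terminal transferase of early B precursors, showed the opposite order in cycling cells of the RUNX1-labelled library. It was in 55.1% of cells with POU2F2 (51.2 to 59.0) and 70.9% of cells without it (68.4 to 73.4). In non-cycling cells of that library the intervals overlapped (21.5%, 19.2 to 23.8, and 24.6%, 21.9 to 27.5). In cycling control cells the shares were 90.8% and 90.4%. The cells share a library and the classes hold cells at different stages of the score, so these shares describe the cells and say nothing of control of 1 gene by another.

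The other POU genes were scarce. Of 13 on the fixed list, 6 had 0 UMIs in both libraries and 0 reached a mean of 5 CPM. POU3F3, a neural factor, was highest with 1.97 and 1.99 CPM. POU5F2 had 1.24 and 1.62 CPM, POU5F1, the stem cell factor OCT4, 0.620 and 0.571 CPM, and POU6F1 0.304 and 0.743 CPM. POU4F1 and the tuft cell factor POU2F3 had 17 and 23, and 7 and 23 UMIs, and POU1F1 had 0 and 1. The POU2AF1 relatives COLCA1, COLCA2 and C11orf53 had at most 8 UMIs in a library. Copies of POU5F1 elsewhere in the genome make its count uncertain.

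Among cofactors of octamer factors and the small nuclear RNA machinery, none was higher over all cells. Of 15 octamer partners, all at a mean of 5 CPM or more, 0 were higher and 7 lower by at least 0.5 on the log2 scale, beside 14.9% and 19.7% of all genes tested, and their median was -0.45. LDHA, a lactate dehydrogenase also found in the POU2F1 coactivator of S phase, had 964 and 242 CPM (-2.00). HCFC1, a POU2F1 partner in herpesvirus transcription, had 57.2 and 33.2 CPM (-0.78), and NPAT, the histone gene coactivator, 16.0 and 9.32 CPM (-0.78). NME1, a nucleoside diphosphate kinase with a near-identical neighbour, had 515 and 315 CPM (-0.71). In cycling cells alone 0 were higher and 3 lower, beside 7.55% and 12.4% of all genes there, and the median was -0.32, beside -0.12 for all genes. In non-cycling cells 1 was higher, SNAPC2 of the small nuclear RNA activating complex (0.77), and 7 were lower, beside 20.7% of all genes in each direction.

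Histone H2B genes are classic octamer targets, and most of their transcripts lack the poly(A) tail by which this assay captures RNA. Of 18, 4 reached a mean of 5 CPM, with 1 higher and 0 lower, a share that 4 genes cannot set apart from the 14.9% and 19.7% of all genes. HIST1H2BK, whose octamer is shown above, had 591 and 1596 UMIs, 7.80 and 21.2 CPM (log2 ratio 1.44, 1.30 to 1.58), and its ratio was 0.90 in non-cycling and 0.89 in cycling cells. Under the floor, HIST2H2BE had 147 and 489 UMIs (1.74, 1.47 to 2.02). The other octamer-bearing H2B genes under the floor did not share 1 direction: HIST1H2BB was at 1.55, HIST1H2BJ at 0.59, HIST1H2BM at 0.21, HIST2H2BF at -0.28 and HIST1H2BO at -0.40, and HIST1H2BA and HIST1H2BH had at most 1 UMI. HIST1H2BF, HIST1H2BN and HIST1H2BC had log2 ratios of 0.25, 0.24 and -0.31. Other core histones had 2 higher and 7 lower of 14 measured, beside 14.9% and 19.7% of all genes, with HIST1H2AM at -2.54, HIST1H2AJ at -2.41, HIST1H2AI at -2.25 and HIST1H4C at -1.33. HIST1H2AJ (18.7 and 3.52 CPM) and HIST1H2AI (9.54 and 2.00 CPM) passed the floor only through the control, so these 2 calls support nothing. The counts of higher and lower histone genes mix libraries with unlike shares of S phase cells. Over the same 14 genes 3 were higher and 4 lower in cycling cells, beside 7.55% and 12.4% of all genes there. The median in cycling cells was -0.14, with HIST1H4C at -0.65 and HIST1H2AM at -2.02. In non-cycling cells 5 were higher and 5 lower, beside 20.7% of all genes in each direction. Several of these non-cycling calls rest on very few control UMIs. HIST1H2AI, HIST1H3G and HIST1H3B, all called lower, were at 0, 0.612 and 1.53 CPM in non-cycling control cells. HIST1H2AI was at 0.454 CPM in non-cycling cells of the RUNX1-labelled library, above the control. Its lower call comes only from setting the control count of 0 to 3 UMIs, so it gives no direction. Near-identical copies make single histone counts uncertain.

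Of 17 genes listed as octamer targets, 9 were measured, 2 higher and 0 lower, beside 14.9% and 19.7% of all genes, and their median was 0.41. The higher ones, SPIB and MS4A1, were under 5 CPM in the control and passed the floor only through the other library, so the count and the median support nothing. SPIB had 203 and 11141 UMIs, 2.68 and 148 CPM (log2 ratio 5.79, 5.59 to 5.99). MS4A1, which encodes CD20, had 45 and 926 UMIs, 0.594 and 12.3 CPM (4.37, 3.94 to 4.84), and in cycling cells 0.589 and 1.70 CPM. IGLC3, an immunoglobulin lambda constant gene with near-identical copies, had 320 and 445 CPM (0.48), and CD79B, a B cell receptor chain, 331 and 443 CPM (0.42). IGHM, HLA-DRA, BTK, BCL2 and BCL6 lay between -0.25 and 0.41. The list thus held both large ratios and ratios near that of all genes.

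**Figure D3:**
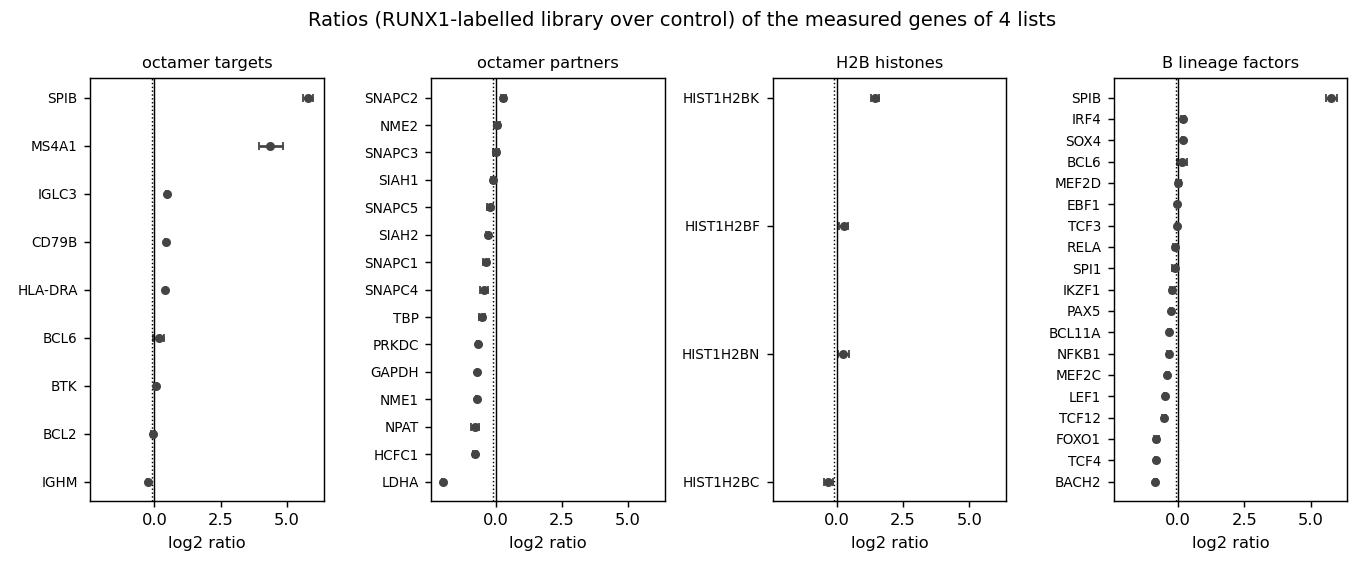
Log2 ratios (RUNX1-labelled library over control) of the measured genes of 4 lists, with exact conditional binomial intervals, a solid line at 0 and a dotted line at the median of all genes (-0.09). SPIB (5.79) and MS4A1 (4.37) stand far from the other octamer targets, and LDHA (-2.00) is the lowest octamer partner.

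Of 23 B lineage factors 19 were measured, 1 higher and 5 lower, beside 14.9% and 19.7% of all genes, with a median of -0.21. SPIB was the higher one, measured only through the library where it was high, so this call supports nothing. BACH2 (100 and 55.5 CPM, -0.85), TCF4 (385 and 215 CPM, -0.84) and FOXO1 (46.5 and 26.5 CPM, -0.81) were the lowest. In cycling cells 1 was higher and 4 were lower, beside 7.55% and 12.4% of all genes there. The higher one was again SPIB (2.72 and 96.1 CPM), with the same limit. BACH2 at -0.48, TCF12 at -0.47 and LEF1 at -0.19 were no longer among the lower ones. TCF12 (-0.52) and LEF1 (-0.50) were the other lower members, and PAX5, EBF1, SPI1 and IRF4 passed neither bound. For the marker lists over all cells the shares of 14.9% and 19.7% of all genes apply. Mature B markers had 2 of 4 measured genes higher, TNFRSF13B (0.911 and 43.4 CPM, 5.57) and MS4A1, both measured only through the library where they were high. Plasma cell markers had 1 of 5 higher, IGJ (3.97 and 18.6 CPM, 2.23), and 1 lower, MZB1 (250 and 99.3 CPM, -1.33). IGJ too was measured only through the library where it was high. B precursor markers had 3 of 11 higher, with VPREB1, a part of the surrogate light chain, at 1.18 and CD79A at 1.02. IGLL1, also a part of it, was at -0.07. Of the 11, 4 were lower, with DNTT at -1.60 and RAG2 at -0.95. In cycling cells only VPREB1 (0.86) of the 11 was higher and 3 were lower, beside 7.55% and 12.4% of all genes there. CD79A was at -0.05 in cycling cells, with 139 and 134 CPM. Of the tuft cell markers 0 of 4 were measured over all cells. In non-cycling cells AVIL was (1.53 and 10.4 CPM), only through the library where it was high.

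Over all measured genes with a listed promoter, 132 of 7450 held an octamer. Of these 132, 20.5% were higher and 14.4% lower by the same bound, and their median log2 ratio was 0.02. Over the 7450 the values were 13.5%, 20.4% and -0.10. Without the histone genes, 124 genes had 20.2% higher, 12.1% lower and a median of 0.02. In cycling cells the medians were -0.02 and -0.12. These are descriptions of 2 libraries, and most octamer matches in promoters are not known to be used.

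Over the 6 groups of 2 libraries and 3 phases, the genes most like POU2F2 included, by Pearson correlation of log2(CPM + 1), among 9184 genes at a mean of 5 CPM, C9orf16, VAT1, JUN and AACS, with r from 0.996 to 0.999. JUN, an AP-1 factor, had 24.5, 21.6 and 19.9 CPM in the G1, S and G2/M cells of the control and 133, 61.8 and 72.6 CPM in those of the RUNX1-labelled library. Most like POU2AF1 were B4GALT1, GBP4, WDR46, CD22 and YARS2 (0.995 to 0.998). B4GALT1, a galactosyltransferase, had 111, 84.1 and 77.8 CPM in the G1, S and G2/M cells of the control and 35.6, 45.6 and 40.4 CPM in those of the RUNX1-labelled library. CD22 is an inhibitory receptor of B cells. Most like POU2F1 were CCRL2, DTD2, CTDP1, USP42 and PIK3CG (0.970 to 0.990). The groups share libraries, and 751 genes had r over 0.9 with POU2F2, 748 with POU2AF1 and 169 with POU2F1, so these names are the head of long lists. POU2F2 and POU2AF1 had r of -0.89 with each other.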

How the data were processed

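Single cells of 2 Nalm-6 libraries were measured with the 10x Genomics Chromium 3′ assay. Per the submitters' processing notes, the authors ran Cell Ranger 3.0.2 with the builds hg19 and mm10, and the deposited values are raw counts per cell and human gene, with no normalization. Human and mouse cells shared a lane, and the deposited barcodes are those called human. Kept cells had more than 2000 and fewer than 6000 genes, mitochondrial UMIs below 20% and fewer than 500 mouse UMIs, which left out 475 and 691 barcodes. Counts were summed over cells and scaled to CPM. CPM values have exact Poisson intervals, ratios exact conditional binomial intervals and shares Clopper-Pearson intervals, while a share of 0 is given with the limit of 3 counts of the total. The interval of a difference of log2 ratios uses the summed inverse counts. Cells were thinned to 8000 UMIs for shares and phases (413 and 612 shallower cells left out), and scanpy 1.11.5 scored phases on the pooled cells with 42 S and 54 G2/M genes. Doublets were not removed.

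Genes were measured at a mean of 5 CPM over the libraries compared and called higher or lower where the log2 ratio reached 0.5 in size, with a count of 0 set to 3 UMIs. Named genes were RUNX1, the 3 octamer genes, other POU genes with any UMI, up to 4 measured genes per list with the largest ratio in size, and the 5 genes most like each octamer gene, of which a POU2F2-like gene is not reported here. Overlapping genes, HIST2H2BE, a few further list members and the pairs in the same cells were chosen after their values were seen. The octamer genes, lists and tests were chosen with earlier results of these data known. Positions of genes are those of GENCODE v44lift37 (GRCh37). Promoters come from RefSeq on GRCh38.p14 and were matched by symbol or a unique synonym, for 2 of the 3 octamer genes; POU2AF1 had no entry. Simulated counts of 9257 genes were used to check the ratios of this comparison. All 100 genes changed 4-fold passed 2-fold. Among 100 genes given a change under 2-fold, 93 passed the log2 bound of 0.5, and 0 unchanged genes did. The true simulated ratio lay in 95.0% of intervals. These intervals cover counting error only, so that share says nothing of variation between cells, cultures or libraries. Alternatives changed the scaling, cell filter, phase calls, thinning and gene floor. The TMM factors are from edgeR 4.0.16 (R 4.3.3), and the rest was done with scipy 1.17.1, pandas 2.3.3 and numpy 2.4.6 under Python 3.11.15. The 10 ChIP-seq samples were not analysed here.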

Additional observations from a re-analysis of the deposited data

Results flagged for a closer look

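POU2AF1 had opposite signs of its ratio between called states in the 2 libraries. The log2 ratio of non-cycling over cycling cells was 0.64 in the control and -0.43 in the RUNX1-labelled library. The difference was not tested, since each group has 1 library. The control value rests on 297 cells called G1, and over 5 bins of the phase score the control showed no steady fall (25.1, 20.3, 19.7, 21.1 and 23.0 CPM).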

How the results depend on the processing

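The directions of POU2F2, POU2AF1 and RUNX1 held under every alternative run, with log2 ratios of 2.57 to 3.68, -2.12 to -1.05 and -1.52 to -0.99. That of POU2F1 ran from -0.35 to 0.16. With TMM factors POU2F1, POU2F2 and RUNX1 were at -0.32, 3.14 and -1.33, and with the median of ratios at -0.32, 3.14 and -1.33. Against totals without mitochondrial and ribosomal protein genes, POU2F1, POU2F2, POU2AF1 and RUNX1 were at 0.023, 3.48, -1.07 and -0.99. Under 10% mitochondrial UMIs, which left 3651 and 599 cells, POU2F1, POU2F2 and RUNX1 were at 0.16, 3.68 and -1.04. In G1 cells alone POU2F1, POU2AF1 and RUNX1 were at -0.35, -2.12 and -1.52, and in S or G2/M cells alone POU2F2 and POU2AF1 were at 2.57 and -1.05. The other 14 values of these 4 genes, among them all barcodes and the removal of the deepest cells, lay within the counting interval of the ratio. The scalings moved the median log2 ratio of all genes from -0.09 to -0.22, -0.21 and 0.12 in the order named. Within a state, 12 of 12 ratios of the octamer genes between libraries from other phase calls stayed within their intervals. Of 12 such ratios of G1 over cycling cells, added after the data were seen, 11 did, and that of POU2F2 in the RUNX1-labelled library moved from 1.32 to 1.40 without cells near the limit. Of the list medians, that of the other core histones reversed, from -0.66 to 0.85 in G1 cells, where 4 members were measured. Over the same 14 members it was 0.05 in G1 cells. With a floor of 1 CPM the median of this list over all cells was -0.07. No value could be given for the other POU genes, since none was measured. Thinning to 5000 UMIs gave POU2F2 shares of 5.14% and 36.4%. The cause of these shifts was not tested. No paired analysis was possible because each group analysed has 1 library. At this depth 5.20 CPM in 252 cells rests on 17 UMIs.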
